A study of Homo sapiens with 6 samples.

Results

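Cullins and F-box proteins build the largest family of ubiquitin ligases in human cells, and their transcripts were measured here in AsPC-1 cells, an established human pancreatic cancer cell line, with and without an siRNA against VCPIP1. The genes were taken from the deposited expression table by symbol: the cullins, the F-box genes of the FBXW, FBXL and FBXO series, SKP1, SKP2, RBX1 and BTRC. The rule found 72 of the 15832 symbols, made up of 8 cullins, the adaptor SKP1 and the RING subunit RBX1 (2 genes), 10 FBXW receptors including BTRC, 18 FBXL receptors including SKP2, and 34 FBXO receptors. Of these, 60 averaged 1 TPM or more across the libraries and were tested. The other 12 were FBXL4, FBXL7, FBXL13, FBXL22, FBXO15, FBXO17, FBXO24, FBXO27, FBXO40, FBXO48, FBXW10 and FBXW12, and none of them exceeded 1.8 TPM in any library. The members next to this limit were FBXL4 and FBXO17 below it (means of 0.758 and 0.865 TPM) and FBXL14 and FBXO32 above it (1.04 and 1.21 TPM).

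All 6 libraries came from cells of this single line, transfected for 48 h with siControl, a control siRNA (3 libraries), or siVCPIP1, an siRNA that targets VCPIP1 (3 libraries). VCPIP1 is a deubiquitinase and a partner of the ATPase p97/VCP, and the title of the series connects it with pancreatic cancer and the Hippo/YAP pathway. The labels give neither the siRNA sequences nor an untransfected group, and leave unstated whether replicate libraries are separate cultures, so the spread that p-values rest on is that between these libraries and may be technical.

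A cullin is an elongated scaffold. One end holds the RING protein RBX1, which recruits a ubiquitin-loaded E2 enzyme, and the other end holds an adaptor with an exchangeable substrate receptor. In the SCF ligases the scaffold is CUL1, the adaptor is SKP1 and the receptor is an F-box protein: FBXW receptors read their substrates with WD40 repeats, FBXL receptors with leucine-rich repeats, and FBXO receptors with other domains. Attachment of NEDD8 switches a cullin on and the COP9 signalosome removes it. BTRC and its close relative FBXW11, the β-TrCP proteins, bind phosphorylated degrons, among them those of β-catenin, of IκB and of YAP after priming by LATS kinases and casein kinase 1, which is how this family enters the Hippo pathway.

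Coding sequence of 4 members is shown first, because the genes that rose and fell differed in base composition. CUL3 and FBXO5 had among the largest falls in siVCPIP1, while CUL7 and FBXW5 rose. Each line gives coding bases 301 to 390 of 1 protein-coding transcript (GENCODE 29, GRCh38), read 5′ to 3′ in the gene's own direction, with every G or C in capitals. The genes lie at chr2:224470150-224585397, minus strand (CUL3), chr6:152970519-152983579, minus strand (FBXO5), chr6:43037617-43053945, minus strand (CUL7) and chr9:136940435-136944696, minus strand (FBXW5).
CUL3: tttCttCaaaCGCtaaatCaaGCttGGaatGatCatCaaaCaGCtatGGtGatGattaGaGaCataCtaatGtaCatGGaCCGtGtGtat
FBXO5: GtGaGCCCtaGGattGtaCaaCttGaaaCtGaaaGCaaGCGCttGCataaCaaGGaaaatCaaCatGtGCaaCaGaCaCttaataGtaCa
CUL7: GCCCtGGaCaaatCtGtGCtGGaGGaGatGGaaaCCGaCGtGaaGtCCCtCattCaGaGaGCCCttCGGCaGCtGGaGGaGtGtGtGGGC
FBXW5: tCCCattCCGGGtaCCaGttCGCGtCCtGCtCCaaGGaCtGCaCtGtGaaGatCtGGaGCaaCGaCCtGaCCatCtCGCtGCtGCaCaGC
Of the 90 bases, 33 were G or C in CUL3, 36 in FBXO5, 53 in CUL7 and 53 in FBXW5. Over the whole coding sequence the G and C share was 39.5% in CUL3, 42.13% in FBXO5, 58.95% in CUL7 and 64.96% in FBXW5.

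The targeted gene and the libraries set the frame for every value below. VCPIP1 stood at 2.93, 3.06 and 2.24 TPM in siControl and at 0.12, 0.11 and 0.27 TPM in siVCPIP1, or -1.68 on the log2 scale (SE 0.13, adjusted p = 2.0e-05, limma), with no overlap of the groups. Correction for GC content and length gave 0.26 (adjusted p = 0.066) with the pseudocount of 1 TPM and -0.55 (adjusted p = 0.016) with 0.1 TPM, a setting chosen after seeing the data, so at this low level the corrected value turned with the pseudocount. Here TPM is a length-scaled share of each library, and log2 fold changes are of TPM + 1, siVCPIP1 minus siControl; a signed value in parentheses after a gene is its log2 fold change. The median TPM over all genes was 6.18 to 7.44 in siControl and 1.24 to 2.26 in siVCPIP1, with the highest siVCPIP1 value in replicate 3, and genes under 45% GC held 13.3% to 15.5% and 3.75% to 5.95% of all TPM. The keratins KRT8, KRT18 and KRT19, markers of the epithelial line, were at 3909 to 8924 TPM in every library, while EPCAM was at 157 to 196 TPM in siControl and 2.99 to 11.7 TPM in siVCPIP1. Other epithelial markers were lower in siVCPIP1 too. In siControl and siVCPIP1, CDH1 was at 27.5 to 31.7 and 0.28 to 1.33 TPM, and MUC1 at 51.9 to 61.9 and 14.7 to 23.55 TPM. LGALS4 was at 38.5 to 45.9 and 20.3 to 33.8 TPM, and CEACAM6 at 1.95 to 3.09 and 0.24 to 0.41 TPM. KRT7 was higher, at 2.13 to 3.12 and 5.2 to 7.89 TPM, and TFF1 stayed at or below 1.29 TPM. Of the markers of other cell types, PTPRC (immune) was at or below 0.66 TPM, COL1A1 (fibroblast) at or below 1.05 TPM and PECAM1 (endothelial) at or below 1.27 TPM in every library. LUM carried nearly all of the fibroblast sum of 45.3 to 68.98 TPM in siControl and 1.5 to 4.51 TPM in siVCPIP1, and CD68 most of the immune sum of 144.5 to 150.1 and 122.0 to 159.2 TPM. The part of these differences in the results was not tested. In bulk RNA, fewer cells of a kind and less RNA per cell cannot be told apart.

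Most cullin and F-box transcripts took a smaller share of the siVCPIP1 libraries, and a small GC-rich set took a larger one. Of the 60 tested members, 43 (71.7%) were lower and 7 (11.7%) higher at an adjusted p under 0.05 (limma, Benjamini-Hochberg over all 10966 genes tested), and 10 were not called. Because the filter took the mean over both groups, members averaging under 1 TPM in siVCPIP1 passed through siControl and could only be called lower. Examples are FBXL14 (siControl and siVCPIP1 means of 1.64 and 0.443 TPM), FBXL17 (2.32 and 0.233 TPM) and FBXO30 (3.61 and 0.11 TPM). The same filter applied to all genes. Over all genes tested, 66.0% were lower and 15.0% higher, so the members' share of falls lay near that of the transcriptome. Their median log2 fold change was -1.36, against -1.12 over all genes. By role the median was -1.87 for the 8 cullins, -0.85 for 8 tested FBXW genes, -1.13 for 14 FBXL genes and -1.65 for 28 FBXO genes. The library groups did not overlap for 45 members on the lower side and 10 on the higher side, against 67.9% lower and 18.2% higher among all genes. The 7 that rose were FBXL15, FBXW5, FBXW9, FBXO44, FBXL8, CUL7 and FBXO2, and the 10 that did not pass were CUL9, FBXL6, FBXL18, FBXL19, FBXO6, FBXO10, FBXO31, FBXO41, FBXO46 and FBXW4.

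How many members fell depended on how the libraries were put on a common scale. Median-of-ratios scaling moved the median of all genes from -1.12 to -0.14, and left 30 members lower and 19 higher (45.1% and 40.3% of all genes). Quantile normalization, which moved that median to 0.04, gave 24 lower and 23 higher (38.8% and 42.2% of all genes). Removing each library's trend on GC content and transcript length gave 15 lower and 25 higher, against 31.7% and 37.3% of 10907 genes. Under all 4 treatments 9 members were lower: CUL2, CUL3, FBXW11, FBXO5, FBXO8, FBXO11, FBXO21, FBXO22 and FBXO34. CUL7, FBXW5, FBXW9, FBXL15 and FBXO44 (5 members) were higher under all 4. Another 19 members were called lower under at least 1 treatment and higher under at least 1 other. The shares of all genes with such calls were not computed. These counts therefore do not set the members apart from other genes.

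**Figure D1:**
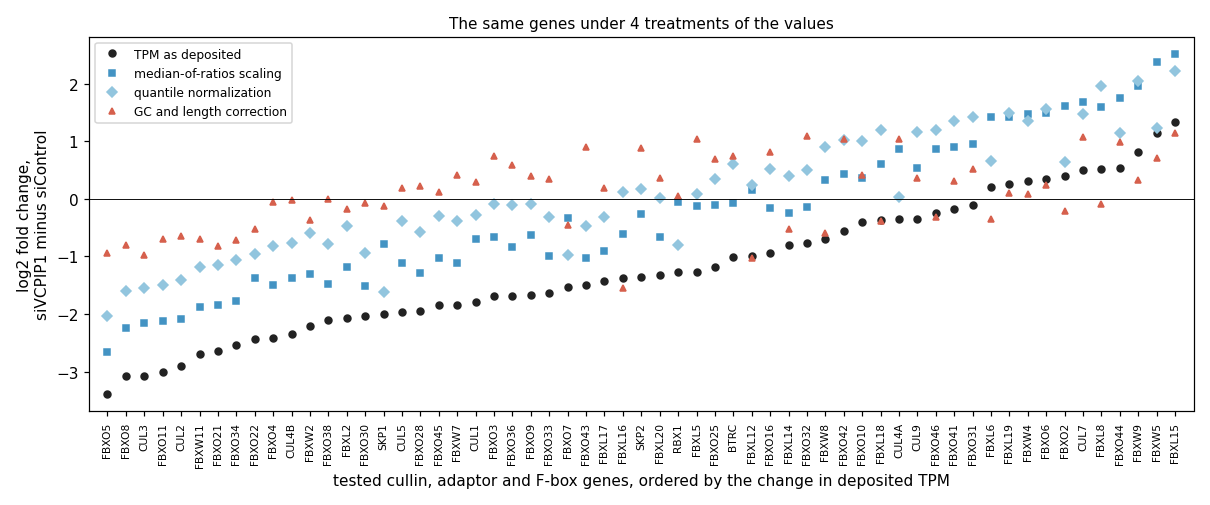
Log2 fold change (siVCPIP1 minus siControl, vertical axis) of 59 of the 60 tested genes, ordered by the change in deposited TPM, under 4 treatments of the values shown by marker. The genes from FBXO5 to FBXO22 at the left lie below 0 under every treatment, and CUL7, FBXO44, FBXW9, FBXW5 and FBXL15 at the right lie above 0 under every treatment, while many between them cross 0.

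The cullin scaffolds separated into 5 with large falls and 3 with small changes. CUL3, the scaffold for BTB-domain receptors, was measured at 16.61, 19.14 and 15.52 TPM in siControl and 0.83, 0.99 and 1.68 TPM in siVCPIP1. All 3 siVCPIP1 values lay below the lowest siControl value, the mean went from 17.1 ± 1.86 to 1.17 ± 0.452 TPM (SD, n = 3 each), and the log2 fold change was -3.08, SE 0.21, adjusted p = 2.0e-05. CUL2, the scaffold of the VHL ligase, stood at 11.58, 12.67 and 9.51 TPM in siControl and 0.37, 0.59 and 1.01 TPM in siVCPIP1, and its log2 fold change was -2.90, SE 0.20, adjusted p = 2.0e-05. CUL3 kept 6.83% and CUL2 5.84% of the siControl mean. They were also lower after the GC and length correction, at -0.97 and -0.64.

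CUL4B, a scaffold of DDB1-based ligases, was at 13.57, 15.58 and 12.76 TPM in siControl and 1.37, 1.5 and 3.26 TPM in siVCPIP1 (log2 fold change -2.35, SE 0.26, adjusted p = 4.3e-05). CUL5, which works with SOCS-box receptors, was at 6.63, 7.56 and 6.85 TPM in siControl and 0.73, 0.78 and 1.82 TPM in siVCPIP1 (-1.96, SE 0.22, adjusted p = 4.8e-05). For CUL1, the SCF scaffold, the values were 16.04, 19.1 and 17.26 TPM in siControl and 3.54, 3.31 and 6.76 TPM in siVCPIP1 (-1.79, SE 0.25, adjusted p = 1.9e-04). In these 3 genes the groups did not overlap and siVCPIP1 replicate 3 held the highest of the siVCPIP1 values. After the GC and length correction CUL4B and CUL5 were not called (-0.03 and 0.18), and CUL1 was higher by 0.29 (adjusted p = 0.026).

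CUL4A was the most abundant cullin. It was measured at 95.18, 95.51 and 88.8 TPM in siControl and 67.92, 67.59 and 83.51 TPM in siVCPIP1, and although the groups did not overlap, its fall was small (-0.35, SE 0.14, adjusted p = 0.04). That call was lost when any library other than siVCPIP1 replicate 3 was left out, and the change was 0.86 after median-of-ratios scaling, 0.04 after quantile normalization and 1.04 after the GC and length correction. The CUL4A transcript used for that correction had 2277 coding bases out of 2364 and no 3′ untranslated sequence. CUL9, a very large cullin of the p53-binding subgroup, was at 3.02, 3.2 and 3 TPM in siControl and 2.13, 1.83 and 2.71 TPM in siVCPIP1. It was not called (-0.35, SE 0.16, adjusted p = 0.078), but passed at -0.45 without siVCPIP1 replicate 3, and was called higher under the other 3 treatments.

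CUL7, the scaffold that pairs with FBXW8, was the only cullin called higher in deposited TPM. Its level was 23.83, 22.99 and 23.93 TPM in siControl and 32.81, 32.15 and 36.37 TPM in siVCPIP1, a log2 fold change of 0.50, SE 0.14, adjusted p = 0.011. The groups did not overlap, and the rise was 1.07 after the GC and length correction. Without siControl replicate 2 the change was 0.48 with an adjusted p of 0.05, just outside the threshold. Its exons overlap those of KLC4 on the opposite strand, as those of CUL4A overlap PCID2, and whether the authors counted by strand is not given in the sources used here.

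Summed over the 8 cullins, TPM went from 186.6 ± 9.06 to 118.5 ± 16.1 (SD, n = 3 each). CUL4A made up 49.9% ± 1.13 (SD, n = 3) of cullin TPM in siControl libraries and 61.7% ± 0.67 (SD, n = 3) after siVCPIP1. The groups did not overlap in this share, which ran from 48.8% to 51.0% and from 60.9% to 62.2%. The mean of CUL4A itself went down, from 93.2 to 73.0 TPM. CUL7 went up from 23.6 to 33.8 TPM, so its share of the smaller sum was larger too.

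**Figure D2:**
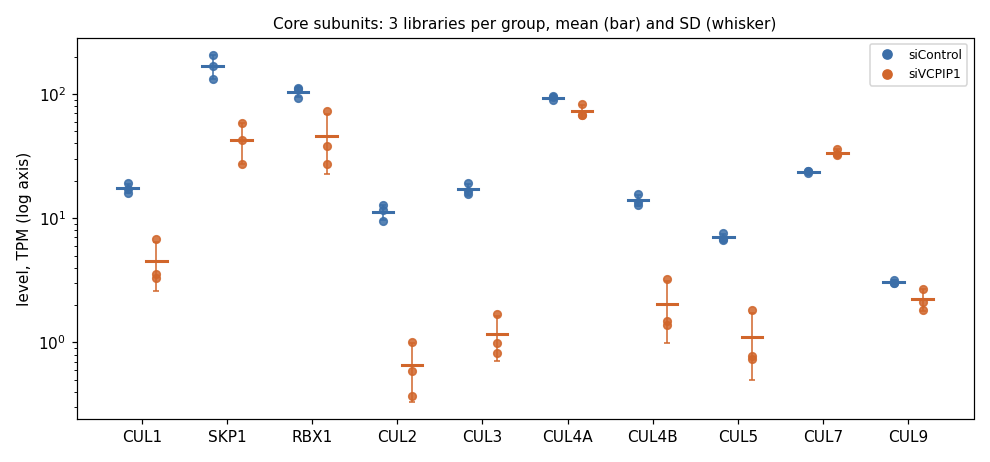
TPM on a log axis of the 8 cullins, SKP1 and RBX1; points are libraries, bars are group means and whiskers SD (3 libraries each). CUL2 and CUL3 drop from 11.3 and 17.1 TPM to 0.66 and 1.17 TPM, CUL4A stays between 67.6 and 95.5 TPM, and CUL7 sits higher in siVCPIP1.

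SKP1, the adaptor that F-box proteins bind, was at 130.9, 169.42 and 204.89 TPM in siControl and 27.53, 42.56 and 58.07 TPM in siVCPIP1. Its siVCPIP1 values all lay below the siControl range (log2 fold change -1.99, SE 0.27, adjusted p = 1.4e-04). RBX1, the RING subunit shared by most cullins, was at 92.41, 108.98 and 110.98 TPM in siControl and 38.31, 27.41 and 72.48 TPM in siVCPIP1 (-1.27, SE 0.31, adjusted p = 0.0042), with siVCPIP1 replicate 3 far above its other two libraries. The annotation names 2 pseudogenes of SKP1, so reads may be shared among copies. Neither gene was called after the GC and length correction (-0.12 and 0.05), while with a pseudocount of 0.1 TPM in it SKP1 was higher by 0.65 (adjusted p = 0.032). The ratio of SKP1 to CUL1 TPM was 9.63 ± 1.97 (SD, n = 3) among siControl libraries and 9.74 ± 2.73 among siVCPIP1 libraries (SD, n = 3), a difference smaller than the spread between libraries. RBX1 stood at 5.97 ± 0.40 times the CUL1 TPM with siControl and at 9.94 ± 1.44 times with siVCPIP1 (SD, n = 3 each), and the ranges of 5.71 to 6.43 and 8.28 to 10.8 did not overlap. That difference depended on the treatment. RBX1 and CUL1 changed by 0.05 and 0.29 after the GC and length correction, and by 0.21 and 0.59 with a pseudocount of 0.1 TPM in it. Quantile normalization gave -0.80 and -0.28, and median-of-ratios scaling -0.06 and -0.70.

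Among the WD40 receptors, FBXW5 dominated in level and rose. FBXW5, which has been studied as a receptor of both CUL1 and CUL4 ligases, was at 187.47, 153.56 and 158.54 TPM in siControl and 396.02, 421.25 and 298.91 TPM in siVCPIP1. The groups did not overlap, the mean went from 167 ± 18.3 to 372 ± 64.6 TPM (SD, n = 3 each) and the log2 fold change was 1.15, SE 0.16, adjusted p = 1.7e-04. FBXW9 was at 12, 11.07 and 11.5 TPM in siControl and 22.63, 19.7 and 20.54 TPM in siVCPIP1, a rise of 0.81, SE 0.16, adjusted p = 0.0015. FBXW4 was at 20.88, 21.62 and 20.88 TPM in siControl and 24.72, 23.94 and 30.65 TPM in siVCPIP1 and was not called (0.30, SE 0.16, adjusted p = 0.11), although its groups did not overlap. FBXW5 supplied 70.3% ± 3.12 of the TPM of all 10 FBXW genes in siControl (SD, n = 3) and 86.5% ± 3.71 in siVCPIP1 (SD, n = 3), and their sum went from 236.5 ± 16.0 to 428.3 ± 57.5 TPM. FBXW5 carried the rise of the sum, while 5 of the 8 tested FBXW genes fell and 2 rose.

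FBXW7, the receptor for phosphorylated cyclin E, MYC and NOTCH and a known tumour suppressor, was at 4.7, 5.89 and 4.4 TPM in siControl and 0.4, 0.47 and 1.21 TPM in siVCPIP1. It fell by 1.85 on the log2 scale (SE 0.21, adjusted p = 5.1e-05) and was higher by 0.42 after the GC and length correction. With a pseudocount of 0.1 TPM in that correction FBXW7 was not called (0.20). FBXW2 went from 10.2 ± 1.17 to 1.56 ± 1.11 TPM (SD, n = 3 each; -2.21), and FBXW8, the CUL7 partner, from 6.37 ± 0.992 to 3.57 ± 0.676 TPM (SD, n = 3 each; -0.69, with the call lost without siControl replicate 2). Under median-of-ratios scaling FBXW8 was higher by 0.32.

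The 2 β-TrCP genes changed unequally. BTRC was at 4.83, 5.26 and 5.37 TPM in siControl and 1.74, 1.63 and 3.02 TPM in siVCPIP1, a log2 fold change of -1.0, SE 0.21, adjusted p = 0.0017. FBXW11 was at 10, 11.64 and 9.31 TPM in siControl and 0.55, 0.43 and 1.39 TPM in siVCPIP1, a log2 fold change of -2.69, SE 0.23, adjusted p = 2.0e-05. FBXW11 was above BTRC in all 3 siControl libraries and below it in all 3 siVCPIP1 libraries. The ratio of BTRC to FBXW11 TPM was 0.504 ± 0.065 among siControl libraries and 3.04 ± 0.82 among siVCPIP1 libraries (SD, n = 3 each). The BTRC level minus the FBXW11 level, on the log2(TPM + 1) scale, changed by 1.69, from -0.87 ± 0.16 to 0.82 ± 0.065, with a two-sided exact permutation p of 0.1, the smallest that 3 against 3 libraries can give. A common scaling factor within a library leaves the TPM ratio as it is, but a difference tied to GC content or length need not. The BTRC and FBXW11 transcripts had 45.34% and 43.78% GC over 6134 and 4342 bases. The part of either kind of difference in the ratio was not tested. With GC and length corrected, BTRC was higher by 0.74 and FBXW11 lower, at -0.69, and quantile normalization gave 0.60 and -1.18.

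A stretch of coding sequence from both genes is shown because it encodes the same residues from different bases. BTRC lies at chr10:101354033-101557321, plus strand, and FBXW11 at chr5:171861549-172006873, minus strand (GRCh38, GENCODE 29). Over 542 aligned codons, 84.5% encode the same residue and 74.42% of bases are the same. The window below is 40 codons long, codes for the same residues throughout, and has 29 differing bases out of 120, printed as capitals. It covers coding bases 1357 to 1476 of BTRC and 1168 to 1287 of FBXW11.
BTRC: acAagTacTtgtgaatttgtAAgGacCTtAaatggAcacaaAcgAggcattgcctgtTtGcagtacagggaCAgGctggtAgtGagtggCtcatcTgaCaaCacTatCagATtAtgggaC
FBXW11: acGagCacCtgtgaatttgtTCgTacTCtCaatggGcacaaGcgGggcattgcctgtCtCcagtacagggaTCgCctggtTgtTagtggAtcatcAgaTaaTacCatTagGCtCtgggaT
The annotation names 1 pseudogene of FBXW11, as it does for CUL1 and CUL4A, so reads may be shared with it. In this window 24 of the differences fell on the third codon base. The G and C share was 45.67% over the BTRC coding sequence and 46.37% over that of FBXW11, while in the printed window 54 of the 120 bases were G or C in BTRC and 60 in FBXW11.

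CUL4A and CUL4B formed a second pair of related scaffolds that moved apart. The ratio of CUL4A to CUL4B TPM was 6.70 ± 0.50 with siControl and 40.1 ± 12.7 with siVCPIP1 (SD, n = 3 each), running from 6.13 to 7.01 and from 25.6 to 49.6. On the log2(TPM + 1) scale their difference changed by 1.99 (two-sided exact permutation p = 0.1). CUL4A lies at chr13:113208193-113267108, plus strand, and CUL4B at chrX:120524609-120575794, minus strand. They share 82.94% of residues over 756 aligned codons. The lines give 40 codons with the same residues, coding bases 1333 to 1452 of CUL4A and 1795 to 1914 of CUL4B, with the 30 differing bases in capitals.
CUL4A: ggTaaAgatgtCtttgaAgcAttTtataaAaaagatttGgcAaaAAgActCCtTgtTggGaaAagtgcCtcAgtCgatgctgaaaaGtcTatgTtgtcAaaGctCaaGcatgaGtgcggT
CUL4B: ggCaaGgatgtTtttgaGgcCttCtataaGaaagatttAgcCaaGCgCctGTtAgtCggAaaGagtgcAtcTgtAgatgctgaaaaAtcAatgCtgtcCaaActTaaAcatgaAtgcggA
Here 27 of the differences fell on the third codon base. Over the whole coding sequence the G and C share was 48.4% in CUL4A and 39.76% in CUL4B. The printed windows do not show that difference, at 39.17% in CUL4A and 41.67% in CUL4B.

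**Figure D3:**
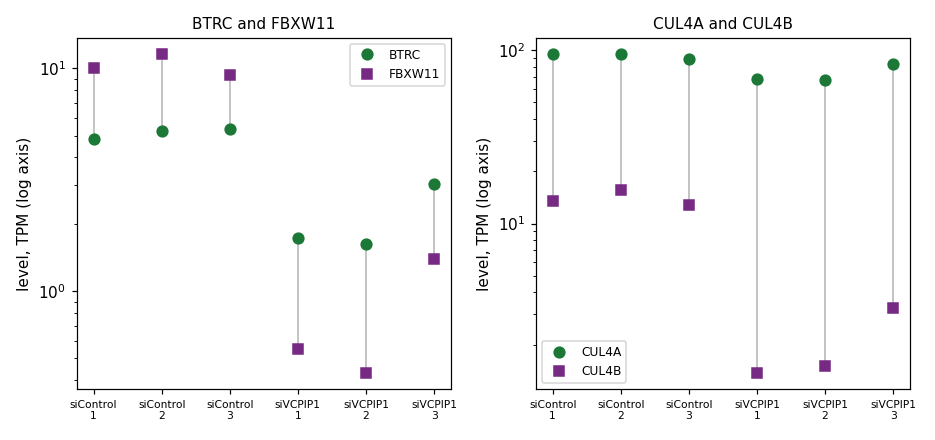
TPM on a log axis in each of the 6 libraries for BTRC and FBXW11 (left) and CUL4A and CUL4B (right), with a grey line joining the genes of a library. FBXW11 is above BTRC in siControl and below it in siVCPIP1, and the gap between CUL4A and CUL4B is wider in every siVCPIP1 library.

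The leucine-rich repeat receptors held the largest rise of all members. FBXL15, a receptor reported for SMURF1, was at 28.43, 19.15 and 18.62 TPM in siControl and 59.19, 63.35 and 46.61 TPM in siVCPIP1. Its mean went from 22.1 ± 5.52 to 56.4 ± 8.72 TPM (SD, n = 3 each) and its log2 fold change was 1.33, SE 0.21, adjusted p = 3.2e-04, with no overlap of the groups. Exons of FBXL15 and PSD overlap on opposite strands. FBXL8 was at 6.1, 6.06 and 4.86 TPM in siControl and 8.32, 9.29 and 8 TPM in siVCPIP1 (0.52, SE 0.19, adjusted p = 0.028), and this call was lost when any library other than siVCPIP1 replicate 3 was left out. FBXL6 was the most abundant FBXL receptor at 68.67, 67.79 and 60.56 TPM in siControl and 79.67, 75.44 and 71.87 TPM in siVCPIP1. It was not called (0.20, SE 0.13, adjusted p = 0.18), although its groups did not overlap, and was lower at -0.35 after the GC and length correction but higher by 1.42 after median-of-ratios scaling.

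SKP2, the receptor that marks the cell cycle inhibitor p27 for degradation, was at 14.18, 16.61 and 12.73 TPM in siControl and 5.01, 3.47 and 7.24 TPM in siVCPIP1. All siVCPIP1 values were below the siControl range (-1.35, SE 0.25, adjusted p = 1.0e-03), with the correction for GC and length giving a rise of 0.88. FBXL2 fell from 7.89 ± 1.95 to 1.1 ± 0.174 TPM (SD, n = 3 each; -2.06). FBXL5, the iron-sensing receptor of IREB2, fell from 20.1 ± 1.55 to 7.87 ± 1.79 TPM (SD, n = 3 each; -1.27). FBXL12 was at 23.3, 25.54 and 21.48 TPM in siControl and 10.32, 7.56 and 17.96 TPM in siVCPIP1 (-0.99, SE 0.28, adjusted p = 0.0096). FBXL12 and FBXL16 fell in deposited TPM at a high coding GC content (64.01% and 66.18%), as did FBXL14 (63.48%). FBXL14 was low and uneven in siControl, at 1.43, 2.72 and 0.77 TPM. It was not called after the GC and length correction (-0.53), median-of-ratios scaling (-0.24) or quantile normalization (0.39). With a pseudocount of 0.1 TPM in that correction it was called lower (-1.19). FBXL12 was not called after median-of-ratios scaling (0.16) or quantile normalization (0.24). FBXL16 was at 4.07, 4.85 and 3.09 TPM in siControl and 0.62, 0.75 and 1.44 TPM in siVCPIP1, with a change of -1.38 that was -1.55 after the GC and length correction. It was -0.60 after median-of-ratios scaling and not called after quantile normalization (0.11). FBXL17 (-1.43), FBXL20 (-1.32) and FBXL14 (-0.80) fell too, and FBXL18 (-0.37) and FBXL19 (0.26) were not called. The sum over the 18 FBXL genes was 199.6 ± 20.3 TPM in siControl and 191.1 ± 1.44 TPM in siVCPIP1 (SD, n = 3 each), within the siControl spread, while 9 of 14 tested members fell and 2 rose.

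FBXO5 had the largest fall of any member. FBXO5, also called EMI1, holds back the anaphase-promoting complex during S and G2 phase. It was at 16.71, 18.09 and 8.59 TPM in siControl and 0.22, 0.22 and 0.88 TPM in siVCPIP1, a log2 fold change of -3.39, SE 0.30, adjusted p = 2.1e-05, and kept 3.04% of its siControl mean. siControl replicate 3 was lowest of its group, yet far above every siVCPIP1 library. FBXO5 was also lower after the GC and length correction, at -0.94.

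The 4 FBXO genes with the next largest falls had siVCPIP1 values below 2 TPM. FBXO8 was at 13.55, 17.67 and 11.4 TPM in siControl and 0.68, 0.36 and 1.44 TPM in siVCPIP1 (-3.08, SE 0.26, adjusted p = 2.0e-05). FBXO11, a receptor of the repressor BCL6, was at 15.81, 18.68 and 11.61 TPM in siControl and 0.67, 0.7 and 1.82 TPM in siVCPIP1 (-3.01, SE 0.27, adjusted p = 2.1e-05). FBXO21 was at 9.64, 11.25 and 8.34 TPM in siControl and 0.45, 0.37 and 1.54 TPM in siVCPIP1 (-2.64, SE 0.26, adjusted p = 2.7e-05). FBXO34 was at 8.48, 9.32 and 6.18 TPM in siControl and 0.49, 0.33 and 0.81 TPM in siVCPIP1 (-2.54, SE 0.20, adjusted p = 2.0e-05). In each of the 4 genes siVCPIP1 replicate 3 was the highest siVCPIP1 library and the groups stayed apart. FBXO22, next in order, was at 20.56, 23.22 and 19.15 TPM in siControl and 1.94, 2.39 and 5.77 TPM in siVCPIP1 (-2.43). It was lower at -0.52 after the GC and length correction, but not called at 0.16 when that correction used a pseudocount of 0.1 TPM.

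FBXO7, a receptor that also binds the proteasome regulator PI31 and is mutated in a form of Parkinsonism, was abundant and fell. It was at 83.47, 94.85 and 108.09 TPM in siControl and 27.54, 22.05 and 54.09 TPM in siVCPIP1 (-1.54, SE 0.30, adjusted p = 0.0012), and the GC and length correction gave -0.46. FBXO4 (-2.41), FBXO38 (-2.10), FBXO30 (-2.03), FBXO28 (-1.95) and FBXO45 (-1.85) were other large falls, and none of the 5 was called after that correction. The remaining called FBXO genes were FBXO3 (-1.69), FBXO36 (-1.68), FBXO9 (-1.66), FBXO33 (-1.63), FBXO43 (-1.50), FBXO25 (-1.19), FBXO16 (-0.93), FBXO32 (-0.77) and FBXO42 (-0.56), all lower in deposited TPM and all called higher after the correction. With a pseudocount of 0.1 TPM in it, FBXO7 (-0.32), FBXO33 (-0.33), FBXO36 (0.50) and FBXO43 (-0.15) were not called. In that setting FBXO30 (-1.02) and FBXO38 (-0.96) were called lower. The call of FBXO42 was lost when any library other than siVCPIP1 replicate 3 was left out. FBXO10 (-0.40), FBXO46 (-0.25), FBXO41 (-0.17) and FBXO31 (-0.10) did not pass. In all, 21 of 28 tested FBXO genes fell and 2 rose, and the sum over all 34 went from 461.0 ± 26.1 to 310.6 ± 37.5 TPM (SD, n = 3 each).

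FBXO2, FBXO44 and FBXO6 are neighbours on chromosome 1 (chr1:11637018-11655785 for FBXO2, chr1:11654375-11663327 for FBXO44 and chr1:11664124-11674354 for FBXO6). FBXO2 and FBXO6 are known to bind sugar chains on misfolded glycoproteins. None of these 3 genes was lower in deposited TPM. Their transcript GC content was 65.83%, 57.71% and 57.89%, and from 55% upward only 26.7% of all genes were lower. FBXO2 was at 116.25, 106.42 and 93.2 TPM in siControl and 137.57, 137.48 and 139.79 TPM in siVCPIP1 (0.40, SE 0.13, adjusted p = 0.019). That call was lost when siControl replicate 2 or 3 or siVCPIP1 replicate 1 or 2 was left out, and FBXO2 was not called after the GC and length correction (-0.21). With a pseudocount of 0.1 TPM in that correction FBXO2 was called lower, at -0.25 (adjusted p = 0.0498, limma). FBXO44 was at 49.93, 44.43 and 40.53 TPM in siControl and 66.18, 61.88 and 68.12 TPM in siVCPIP1 (0.53, SE 0.14, adjusted p = 0.0066), and was also higher after the correction (0.98). FBXO6 was at 16.72, 14.92 and 12.4 TPM in siControl and 18.31, 19.2 and 18.51 TPM in siVCPIP1 and was not called (0.34, SE 0.17, adjusted p = 0.1), although its groups did not overlap. Exons of FBXO2 and FBXO44 overlap on opposite strands, so their values may not be independent where strand was not used in counting.

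**Figure D4:**
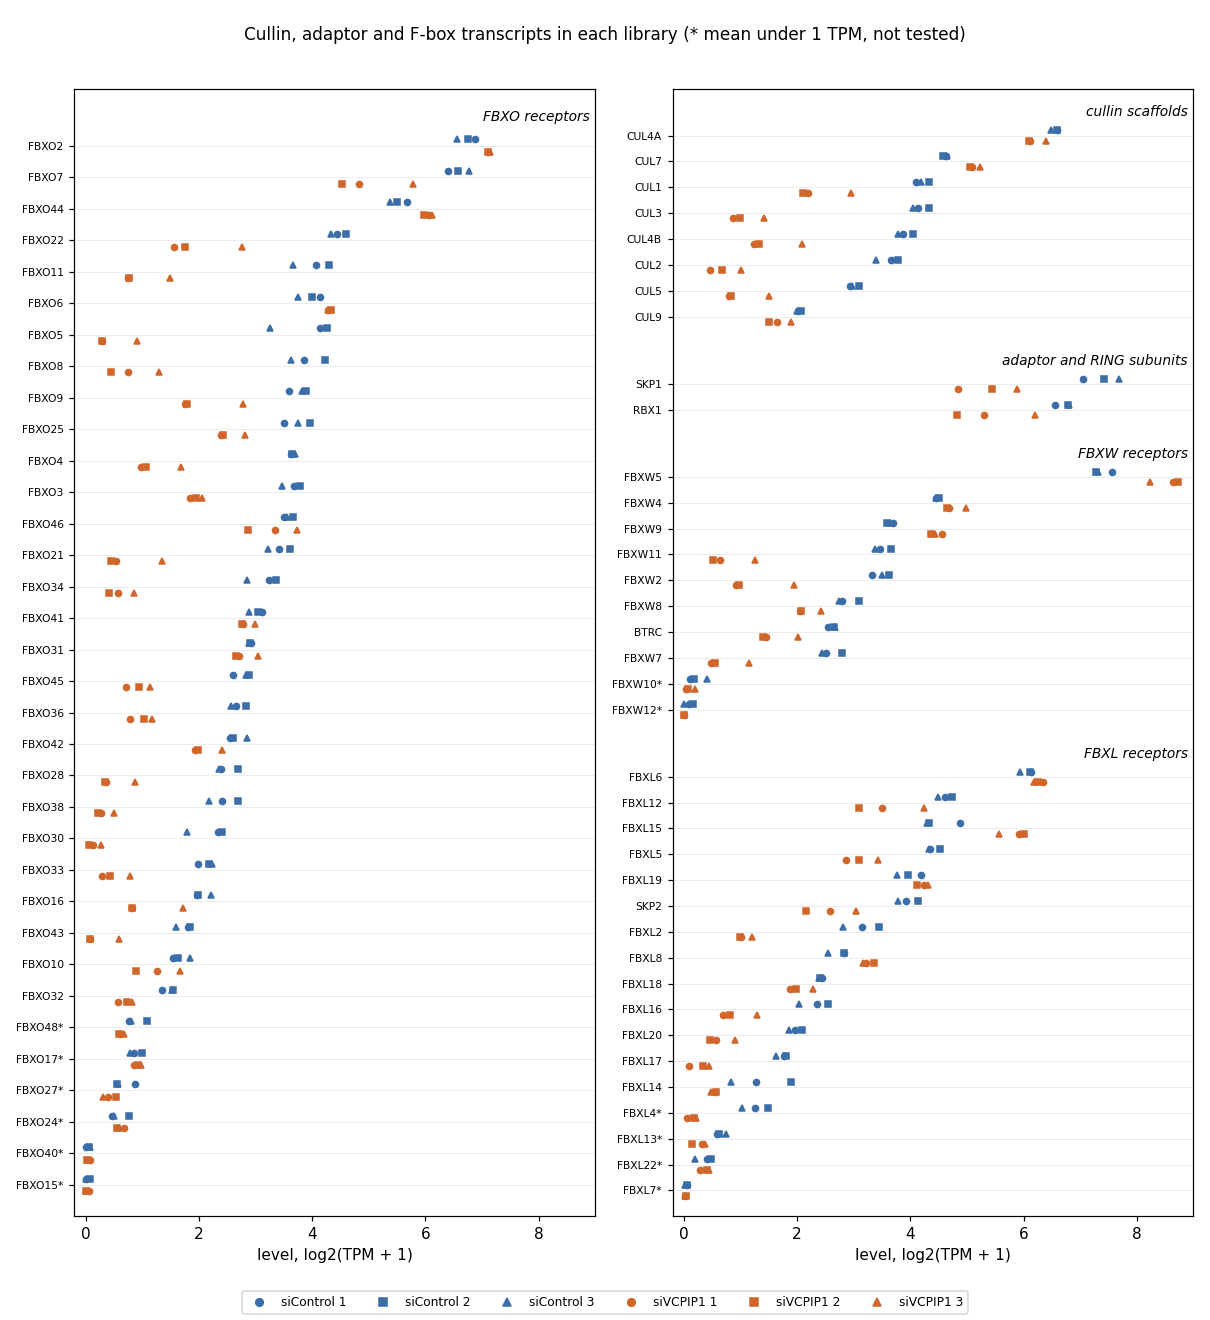
Level of 71 of the 72 genes, log2(TPM + 1), in each library, grouped by role and ordered by siControl mean; colour marks the group, marker shape the replicate, and an asterisk the 12 genes under a mean of 1 TPM. Most siVCPIP1 points lie left of the siControl points, while FBXW5, FBXW9, FBXL15, FBXL8, CUL7, FBXO2 and FBXO44 lie to the right, and siVCPIP1 replicate 3 (triangle) is usually the nearest to siControl.

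In 42 of the 43 members that fell, siVCPIP1 replicate 3 had the highest of the siVCPIP1 values, as it did in 6989 of 7241 falling genes overall. Without it 47 members were lower and 8 higher. Its median TPM was 2.26, against 1.26 and 1.24 in the other siVCPIP1 libraries. The part of this library's composition in the results was not tested.

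Direction went with base composition within the family. Transcript GC content was 42.72% in the median member that fell, 63.58% in the median member that rose, and 62.16% in the median member not called. All 18 members with a GC content under 42%, all 18 between 42% and 48% and all 3 between 48% and 55% fell, where 98.0%, 94.0% and 71.3% of all genes in these ranges fell. From 55% upward 4 of 21 members fell (FBXL12, FBXL14, FBXL16 and FBXW8) and 7 rose, against 26.7% and 37.3% of all genes. Across the 60 members, log2 fold change and transcript GC content had a Pearson correlation of 0.837 and a Spearman correlation of 0.803. Over 10907 tested genes these were 0.724 and 0.736. Genes measured in the same 6 libraries are not independent replicates, so these are descriptions. Of the 43 members that fell in deposited TPM, 13 were lower, 14 not called and 16 higher after the GC and length correction, and of the 7 that rose, 5 were higher and 2 (FBXL8 and FBXO2) not called. The matching shares over all genes were not computed, so these counts do not set the members apart. The part of base composition in the changes was not tested beyond this correction.

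**Figure D5:**
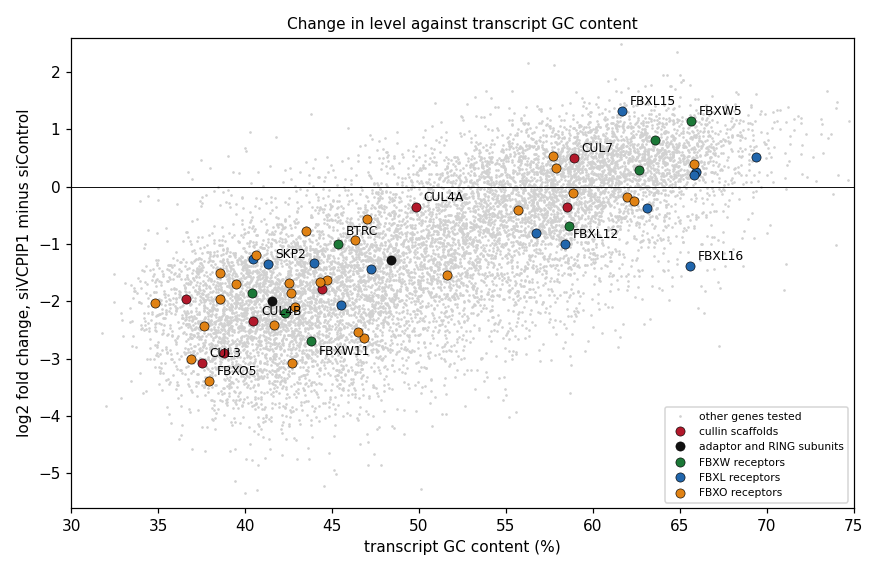
Log2 fold change (siVCPIP1 minus siControl, vertical axis) against the GC content of 1 protein-coding transcript per gene in percent (horizontal axis); coloured points are 59 of the 60 tested members by role and grey points the other genes tested. Members run upward from FBXO5 and CUL3 at the lower left to FBXW5 and FBXL15 at the upper right, with FBXL16 apart at high GC content and a low value.

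Transcripts of the machinery around the cullins followed the same split of many falls and few rises. In deposited TPM the lists below are set against the 66.0% of all genes that fell, the 15.0% that rose and their median of -1.12. Counts after the GC and length correction are set against 31.7% lower and 37.3% higher among all genes. With a pseudocount of 0.1 TPM in it these shares were 31.1% and 36.0%. They were 45.1% and 40.3% under median-of-ratios scaling, and 38.8% and 42.2% under quantile normalization. List medians in deposited TPM were -1.17 for the neddylation genes, -1.32 for the COP9 signalosome, -1.32 for adaptors and -1.41 for receptors of other cullins. They were -1.46 for the E2 and ARIH enzymes, -1.04 for other F-box genes, -0.98 for the anaphase-promoting complex, -1.66 for SCF substrate mRNAs and -1.75 for the genes around YAP. Of the 11 tested neddylation genes, 10 fell and UBE2M, the main E2 for NEDD8, rose. UBE2M went from 98 ± 9.56 to 179 ± 14.6 TPM (SD, n = 3 each; 0.86, SE 0.13, adjusted p = 3.1e-04). UBA3 and NAE1, the subunits of the NEDD8 E1 enzyme, went from 13.9 ± 4.19 to 0.9 ± 0.513 TPM (SD, n = 3 each; -2.96) and from 85 ± 13.6 to 14.7 ± 5.38 TPM (SD, n = 3 each; -2.51), and DCUN1D4 and DCUN1D1 changed by -2.23 and -2.0. NEDD8 itself had a small fall (-0.42). After the GC and length correction 2 of the 11 were lower and 4 higher. UBE2M was higher by 0.24 after it, but was not called with a pseudocount of 0.1 TPM in it (0.21).

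In the COP9 signalosome 7 of 10 subunits fell and 1 rose. COPS8 (-3.07), COPS4 (-2.97), COPS5 (-2.84) and COPS2 (-2.80) had the largest falls, and COPS5, which carries the NEDD8-cleaving activity, went from 82.7 ± 11.9 to 11.2 ± 5.05 TPM (SD, n = 3 each). GPS1, the first subunit, rose from 155 ± 15.6 to 252 ± 28.5 TPM (SD, n = 3 each; 0.70). All of these 5 kept their direction and their call after the GC and length correction, with COPS5 at -0.70 and GPS1 at 0.33, but with a pseudocount of 0.1 TPM in it COPS4 (-0.47) and COPS2 (0.015) were not called. Over the 10 subunits that correction gave 5 lower and 2 higher, and median-of-ratios scaling 5 lower and 5 higher. CAND1, which exchanges receptors on cullins, and the RBX1 inhibitor GLMN fell (-1.95 and -1.71), and after the correction CAND1 was not called and GLMN was higher by 0.65.

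Of the 6 adaptor genes of other cullins, ELOC, DET1, DDB1 and ZYG11B fell and ELOB rose. The elongins ELOB and ELOC form a dimer that links CUL2 and CUL5 to their receptors. ELOB was at 564.36, 485.64 and 447.17 TPM in siControl and 1250.1, 1318.18 and 825.35 TPM in siVCPIP1 (1.16, SE 0.19, adjusted p = 4.4e-04), and ELOC was at 63.46, 77.98 and 73.38 TPM in siControl and 20.01, 20.36 and 37.39 TPM in siVCPIP1 (-1.49, SE 0.24, adjusted p = 4.3e-04). After the GC and length correction no adaptor (0 of 6) was lower and 4 were higher: ELOB (0.60), ELOC (0.96), ZYG11B (0.74) and DDA1 (0.57). Median-of-ratios scaling and quantile normalization each gave 2 lower and 2 higher. Among 75 tested receptors of the other cullins, 62 fell and 3 (KLHDC3, KCTD17 and KLHL22) rose, led on the falling side by KCTD9 (-3.49), KCTD3 (-3.47), WSB1 (-3.08) and DCAF6 (-2.88). A single receptor (1) was called higher without siControl replicate 2, siControl replicate 3 or siVCPIP1 replicate 1, and 2 were without siVCPIP1 replicate 2. After the GC and length correction 19 were lower and 31 higher.

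Of the E2 and ARIH enzymes that work with cullins, 7 of 9 fell and CDC34, the E2 that extends ubiquitin chains on SCF substrates, rose from 162 ± 16 to 298 ± 13.8 TPM (SD, n = 3 each; 0.88, SE 0.12, adjusted p = 1.9e-04). UBE2G1 (-2.93), UBE2D1 (-2.41) and UBE2D3 (-2.31) had the largest falls. After the GC and length correction 1 of the 9 (UBE2G1, -0.70) was lower and 4 were higher, with CDC34 at 0.25, and UBE2D1 and UBE2D3 were not called. With a pseudocount of 0.1 TPM in it none (0) was lower and 4 were higher. UBE2D3 (0.42) was among these 4, and CDC34 was not called (0.21). F-box genes with other symbols showed 5 falls among 6 tested, with LMO7 at -3.73, KDM2B at -1.68, KDM2A at -1.50, FBH1 at -0.58 and TSPAN17 at -0.40, and CCNF at 0.03 not called.

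The anaphase-promoting complex, a RING ligase whose ANAPC2 subunit is related to cullins, showed 11 falls and 4 rises among 16 genes. ANAPC10 (-3.19), ANAPC13 (-2.82), CDC23 (-2.73) and CDC27 (-2.69) fell most, and ANAPC15 (0.65), ANAPC11 (0.61), FZR1 (0.45) and ANAPC2 (0.41) rose. Without siControl replicate 2, siControl replicate 3 or siVCPIP1 replicate 1, the count of rises was 2, and it was 3 without siVCPIP1 replicate 2. With GC and length corrected, 4 of the 16 were lower and 10 higher.

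The mRNAs of known SCF substrates were measured only as transcripts, and protein levels were not part of these data. Of 37 tested, 28 fell and PER1, a circadian repressor bound by β-TrCP, rose (0.86, SE 0.18, adjusted p = 0.0017); the list contains FBXO5, itself a member. MYC, a FBXW7 and SKP2 substrate, went from 54.2 ± 8.08 to 4.36 ± 4 TPM (SD, n = 3 each; -3.60, SE 0.43, adjusted p = 6.8e-05) and was lower at -3.85 after the GC and length correction. The MYC transcript used for that correction had 1362 coding bases out of 1365 and no 3′ untranslated sequence. Its corrected value therefore rests on the GC content and length of the coding part only. The next largest falls after MYC were those of FBXO5 (-3.39), CRY1 (-3.14), NUSAP1 (-3.02), WEE1 (-2.99) and CDKN1B (-2.98), the gene of the SKP2 substrate p27. These 5 were also lower after the correction, with CDKN1B at -1.26. After that correction 15 were lower and 6 higher.

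Of the genes that connect β-TrCP with YAP, 5 of 6 fell. YAP1 was at 31.52, 36.8 and 27.56 TPM in siControl and 1.67, 1.76 and 3.69 TPM in siVCPIP1 (-3.33, SE 0.26, adjusted p = 2.0e-05), with no overlap of the groups, and was lower at -1.38 after the GC and length correction. LATS2 fell (-2.25) and stood at -1.03 after the correction, whereas WWTR1, the gene of TAZ (-1.78), and LATS1 (-1.72) were higher after it, by 0.35 and 0.31. The casein kinase 1 gene CSNK1E fell (-0.98) and CSNK1D was not called (-0.27). After the correction CSNK1E was at -0.69, and over the list 3 of 6 were lower and 2 higher.

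Promoters were searched for the core TEAD-binding letters GGAATG on both strands, since TEAD factors carry YAP to DNA. RefSeq promoters (GRCh38.p14, 300 bases around the start) were found for 56 of the 72 members, and 7 of them (12.5%) held the letters: CUL1, CUL2, FBXL13, FBXL22, FBXO30, FBXO41 and FBXO42. The share over 27305 promoters in the table was 14.0%. A match is a description of sequence only.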

How the data were processed

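RNA sequencing of 6 AsPC-1 libraries (3 siControl, 3 siVCPIP1) was used. TPM values per gene symbol were computed and deposited by the authors, per the file headers, and rounded to 2 decimals. The submitters' processing notes name the build GRCh38.p13. For aligner, annotation, strand setting and read number the entry is: not given in the sources used here. So depth is unknown and no counting interval is given. No other column of sample values was left out (0).

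The 10966 genes averaging 1 TPM or more were tested on log2(TPM + 1), with a pseudocount of 1, by limma 3.58.1 in R 4.3.3 (trend, two-sided, only group in the model). P-values were adjusted by Benjamini-Hochberg across these genes, and 0.05 was the threshold. Alternatives were median-of-ratios scaling, quantile normalization, pseudocounts of 0.1 and 5, no filter, a mean of at least 5 TPM, a replicate block, each library left out in turn, and removal of each library's spline trend on GC content and log2 length (5 and 3 degrees of freedom, both read from GENCODE 29, 1 protein-coding transcript for each gene, found for 10907 of 10966 genes, 99.5%, and for all 60 tested members). The fits were tested on simulated data. Scripts ran in Python 3.11.15 with pandas 2.3.3 and Biopython 1.88, which aligned the translated coding sequences.

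The members, pathway lists and gene pairs were chosen with earlier results of these data known. Values of every library are given for the cullins, SKP1, RBX1, SKP2, BTRC, FBXW11, FBXW7, the 8 largest called falls and rises (only 7 rose) and the 3 most abundant tested members of each role. From each pathway list the called members with the largest changes (at most 4) are named, as are those making up a count of 5 or fewer, with all 6 of the YAP list. FBXL16, COPS5, NEDD8, CCNF, ELOB and ELOC were given more detail after their values were seen. Replicate numbers were taken as names only. The values of 1 member are not reported here, although it enters every count, sum and median.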

Additional observations from a re-analysis of the deposited data

How the results depend on the processing

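With TPM as deposited 7241 genes were lower and 1646 higher. The lower count was 4258 after quantile normalization, 4679 with a mean of at least 5 TPM (fewer genes tested), 3461 after the GC and length correction, 3482 with the replicate block added to it and 3387 with a pseudocount of 0.1 in it, a setting chosen after seeing the data. The higher count was 4416 after median-of-ratios scaling and 4625, 4064, 4040 and 3927 under quantile normalization and the corrections in the same order. For the cullin and F-box genes, 43 lower became 24, 22, 15, 17 and 18 under the settings named for the lower count, and 7 higher became 19, 23, 25, 24 and 21 under those named for the higher count. Leaving out 1 library at a time gave 39 to 47 members lower and 4 to 8 higher, 6532 to 7853 genes lower and 1237 to 1845 higher. The lowest count of members higher, 4, came without siControl replicate 2. VCPIP1 turned to 0.26 under the GC and length correction, with or without the replicate block, but was lower at -0.55 with a pseudocount of 0.1 in that correction. It was also lower at -0.55 under quantile normalization, at -1.16 under median-of-ratios scaling, and at -3.45 and -0.58 with pseudocounts of 0.1 and 5 TPM on TPM as deposited, and its range over left-out libraries was -1.78 to -1.62. The cause of these shifts was not tested beyond the values given.

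The replicate block alone, as a paired fit, gave 7085 genes lower and 1586 higher, with 42 members lower and 6 higher; FBXL8 (adjusted p = 0.068) and FBXO42 (adjusted p = 0.051, limma) lost their call and no other member did. Deviations from the group means of same-numbered libraries correlated at 0.531, -0.267 and 0.164 for numbers 1, 2 and 3, and not every library correlated best with its own number. Deviations of 3 libraries from their own mean are not independent, so these values cannot decide whether same-numbered libraries were paired. All 60 members kept their direction and call with pseudocounts of 0.1 and 5 TPM and with no filter, as did the 36 members with a mean of at least 5 TPM.

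Members whose log2 fold change reversed are listed with the new value. The shares of all genes that reversed were not computed, so the lists do not set the members apart. After the GC and length correction, with or without the block, these were 28 genes: FBXL6 -0.35, FBXO2 -0.21, FBXL8 -0.0901, RBX1 0.0497, FBXO45 0.12, CUL5 0.18, FBXL17 0.20, FBXO28 0.22, CUL1 0.29, FBXO41 0.32, FBXO33 0.34, CUL9 0.36, FBXL20 0.36, FBXO9 0.39, FBXO10 0.42, FBXW7 0.42, FBXO31 0.51, FBXO36 0.59, FBXO25 0.70, FBXO3 0.74, BTRC 0.74, FBXO16 0.81, SKP2 0.88, FBXO43 0.90, FBXO42 1.04, CUL4A 1.04, FBXL5 1.04 and FBXO32 1.09. With a pseudocount of 0.1 TPM in that correction they were 27: FBXL6 -0.38, FBXO2 -0.25, FBXL8 -0.066, FBXO45 0.0846, FBXL20 0.15, FBXO22 0.16, FBXW7 0.20, RBX1 0.21, CUL4B 0.21, FBXO10 0.36, CUL9 0.42, FBXO41 0.43, FBXO36 0.50, CUL5 0.53, FBXO16 0.58, CUL1 0.59, FBXO31 0.64, SKP1 0.65, FBXO9 0.65, BTRC 1.03, FBXO3 1.13, FBXO32 1.16, CUL4A 1.27, FBXO25 1.40, FBXO42 1.41, SKP2 1.42 and FBXL5 1.66. Under median-of-ratios scaling they were 10: FBXL12 0.16, FBXW8 0.32, FBXO10 0.36, FBXO42 0.43, CUL9 0.54, FBXL18 0.60, FBXO46 0.86, CUL4A 0.86, FBXO41 0.89 and FBXO31 0.95. Under quantile normalization they were 19: FBXL20 0.0196, CUL4A 0.0386, FBXL5 0.0888, FBXL16 0.11, SKP2 0.17, FBXL12 0.24, FBXO25 0.35, FBXL14 0.39, FBXO32 0.51, FBXO16 0.52, BTRC 0.60, FBXW8 0.90, FBXO10 1.0, FBXO42 1.02, CUL9 1.15, FBXL18 1.19, FBXO46 1.20, FBXO41 1.34 and FBXO31 1.43. Depth is unknown, so the precision of low TPM values cannot be given.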
